A study of Mus musculus with 10 samples.

Results

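Estrus was compared with diestrus in sorted mammary epithelial cells of mice that lack RSK2, using 3 estrus and 2 diestrus libraries of the 10 in the series. RSK2 is ribosomal S6 kinase 2, the product of the X-linked gene Rps6ka3, and it is activated by the ERK kinases. All groups were C57BL/6J mice aged 12 wk, and the cells came from the 4th mammary glands, sorted by flow cytometry as EpCAM-hi, CD49f+low, Sca-1+ and CD49b-. The knockout groups carry the genotype RSK2(-/-) and the reference groups RSK2(+/+). The reference genotype was also sampled as 3 estrus and 2 diestrus libraries and serves here only as a comparison. The labels do not give the promoter, the construct or the exons deleted, and do not say whether a library is 1 mouse or a pool, so p-values measure the spread between libraries. Members of the comparison were all genes whose normalized counts averaged 10 or more across the series, 15180 of the 26312 genes in the table. A normalized count is a read count divided by a factor for the library's depth.

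In the mouse estrous cycle, circulating estrogen peaks just before estrus, and progesterone is high in diestrus. Hormone-sensing luminal cells of the mammary gland carry the receptors for estrogen, progesterone and prolactin, and they pass the signal on to neighbouring cells through secreted factors such as amphiregulin, WNT4 and RANKL. ERK signalling acts in these cells downstream of growth factors, and the RSK kinases are among its targets that phosphorylate transcription factors and the translation machinery.

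After normalization the libraries had totals of 14108057 to 15307238 counts and 20831 to 22122 genes above 0. Their original depth is not given in the sources used here, and normalized totals do not show it. Of the 11 markers of hormone-sensing luminal cells all were measured. Their summed level was 400419 to 404713 in the knockout estrus libraries and 342736 to 375284 in the knockout diestrus libraries. In the RSK2(+/+) libraries it ran from 355391 to 452316. The median log2 difference of the 11 genes between the knockout stages was 0.10. Csn2 and Lalba, milk protein genes of alveolar cells, were at 2 normalized counts or fewer in every library. Rps6ka3 itself was at 158, 156 and 164 normalized counts in knockout estrus, 156 and 165 in knockout diestrus, 136, 128 and 137 in RSK2(+/+) estrus, and 165 and 139 in RSK2(+/+) diestrus. Its transcript level was therefore not lower in the knockout libraries and does not check the genotype labels. The titles of the knockout samples also contain the letters WT, and the genotype entry was used. Across all tested genes the knockout estrus libraries correlated with each other at r = 0.962 to 0.973 and the knockout diestrus pair at 0.981, against 0.938 to 0.957 between the stages. On the leading principal component, which held 29.3% of the variance, knockout estrus lay at 55.8, 37.6 and 37.4 and knockout diestrus at -28.6 and -33.1. On the next component, which held 17.2%, knockout estrus replicate 3 lay at -35.9, apart from replicates 1 and 2 at 10.2 and 4.29 and beside the diestrus pair at -25 and -37.2.

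Knockout cells differed widely between the stages. Among the lists of genes examined, all calls of oxidative phosphorylation and of S phase and mitosis genes were higher at estrus, and all calls of protein folding, vesicle export and tRNA charging genes were lower. Of the 15180 genes, 2524 were called (16.6%), of which 1165 were higher at estrus (7.67% of all tested) and 1359 lower (8.95%). A gene was called where limma's test on log2(normalized count + 1), with 1 mean per group and a spread shared by all 10 libraries, gave a Benjamini-Hochberg adjusted p under 0.05. The difference exceeded 1 on the log2 scale in 399 of the rises and fell below -1 in 363 of the falls. In 2523 of the 2524 called genes the 3 estrus values did not overlap the 2 diestrus values, a pattern that 7741 of all tested genes, or 51%, showed. The exception was Sftpd, the gene of surfactant protein D, at 1413, 575 and 2 in estrus and 2 and 0 in diestrus, and it was called in 1 of the 5 fits that left out a knockout library. In the RSK2(+/+) cells the same contrast called no gene (0%), with 588 genes at an unadjusted p under 0.05, against 5134 in the knockout. The test of the difference between the 2 contrasts, a genotype by stage interaction in the same limma fit, also called no gene (0%), with 2150 genes at an unadjusted p under 0.05 and a smallest adjusted p of 0.0812. A response particular to the knockout was therefore not shown. The count of calls rested on the diestrus pair. Without diestrus replicate 1 the fit called 151 genes and without diestrus replicate 2 it called 39, where the lone diestrus library is assumed to vary like the other groups. Leaving out an estrus library gave 1331 calls without replicate 1, 1926 without replicate 2 and 2626 without replicate 3. All 2524 genes had the same sign of difference in these 5 fits, which share most of their libraries. For the 2523 genes without overlap of the stages, leaving out 1 library could not have changed the sign, so this does not measure stability.

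**Figure D1:**
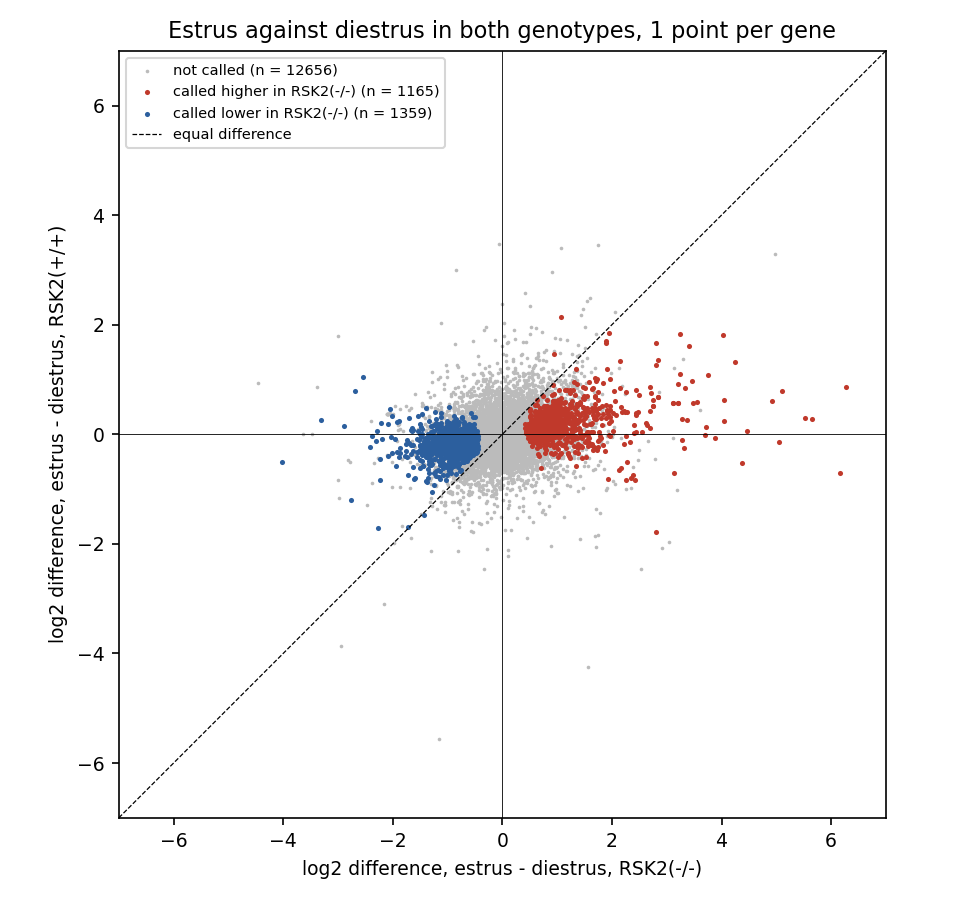
Log2 difference between estrus and diestrus for each of the 15180 tested genes, in RSK2(-/-) cells (x axis) and in RSK2(+/+) cells (y axis), both from log2(normalized count + 1). Red and blue points are the 1165 genes called higher and the 1359 called lower in the knockout. The called genes spread along the x axis and lie near 0 on the y axis, with a median size of 0.833 against 0.166, and the dashed line marks equal differences.

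Among the called genes the size of the difference was a median of 0.833 on the log2 scale in the knockout, where they were chosen, and 0.166 in RSK2(+/+). The RSK2(+/+) difference had the same sign in 2043 of the 2524, or 80.9%, beside 63.6% over all tested genes. The 2 contrasts share no library. The median difference over all genes was -0.00975 in the knockout and -0.00362 in RSK2(+/+). The values were already normalized between libraries, which tends to centre such medians near 0. These medians therefore cannot show whether either contrast was shifted as a whole.

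A group of 24 genes was called in all 5 fits that each left out 1 knockout library, 11 higher at estrus and 13 lower. Ccnb2, the mitotic cyclin B2, was at 75, 48 and 88 normalized counts in estrus and at 1 in each diestrus library. RSK2(+/+) libraries lay between these at 10, 34 and 22 in estrus and 11 and 11 in diestrus. Stmn1, which encodes the microtubule destabilizer stathmin (chromosome 4, from 134468320 to 134473843, mm10), was at 293, 238 and 221 in estrus and 32 and 41 in diestrus, a log2 difference of 2.75 ± 0.28 (SE, limma, adjusted p = 0.00186). Knstrn, a kinetochore and spindle protein gene, was at 45, 30 and 38 against 1 and 1. The other rises included 3 detoxifying enzyme genes. Gstm1, a glutathione S-transferase, was at 1146, 879 and 843 in estrus and 313 and 256 in diestrus, 3.34-fold higher. Gstm4 of the same cluster was at 331, 402 and 320 against 131 and 151, and reads of these related genes may not be fully separated. Aldh3a1, an aldehyde dehydrogenase, was at 80, 96 and 36 against 4 and 6. Rasd1, a glucocorticoid-induced Ras-related protein, was at 2124, 2334 and 3060 against 639 and 871, and Coa3, a cytochrome oxidase assembly factor, at 794, 641 and 780 against 312 and 331.

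The 13 falls in that group were close to each other in size, with log2 differences from -1.51 to -1.21. Il6st, which encodes gp130, the signalling receptor shared by interleukin 6 family cytokines (chromosome 13, from 112464070 to 112510086, mm10), was at 1621, 2014 and 1869 in estrus and 4414 and 4550 in diestrus. Its log2 difference was -1.29 ± 0.15 (SE, limma, adjusted p = 0.00267). Cyld, a deubiquitinase that restrains NF-kappaB signalling, was at 470, 607 and 561 against 1412 and 1366. Slc30a4, a zinc transporter gene, was at 568, 648 and 517 against 1637 and 1649. In each of these the 5 RSK2(+/+) libraries lay between the 2 knockout stages, or in Slc30a4 reached slightly above the diestrus pair: Il6st was at 3049, 3948 and 3276 in estrus and 3233 and 3387 in diestrus. The remaining falls were Crybg1, Slc35a5, Gcnt4, Cobll1, Katnbl1, Lrch3, Eaf1, Mtmr6, Sipa1l2 and Frmd6. The group also held 3 processed pseudogenes, Gm8730, Gm9625 and Gm14165, whose transcript sequences share 70.1%, 53.5% and 46.6% of their 25-base words with Rplp0, a ribosomal protein gene. Gm8730 was at 1553, 1147 and 1051 in knockout estrus, 219 and 236 in knockout diestrus and 150 to 246 in the RSK2(+/+) libraries, which sets knockout estrus apart from every other library. Rplp0 itself was at 16845, 13990 and 13223 against 11501 and 12317 and was not called (limma, adjusted p = 0.249), and reads of such copies cannot be assigned with certainty.

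**Figure D2:**
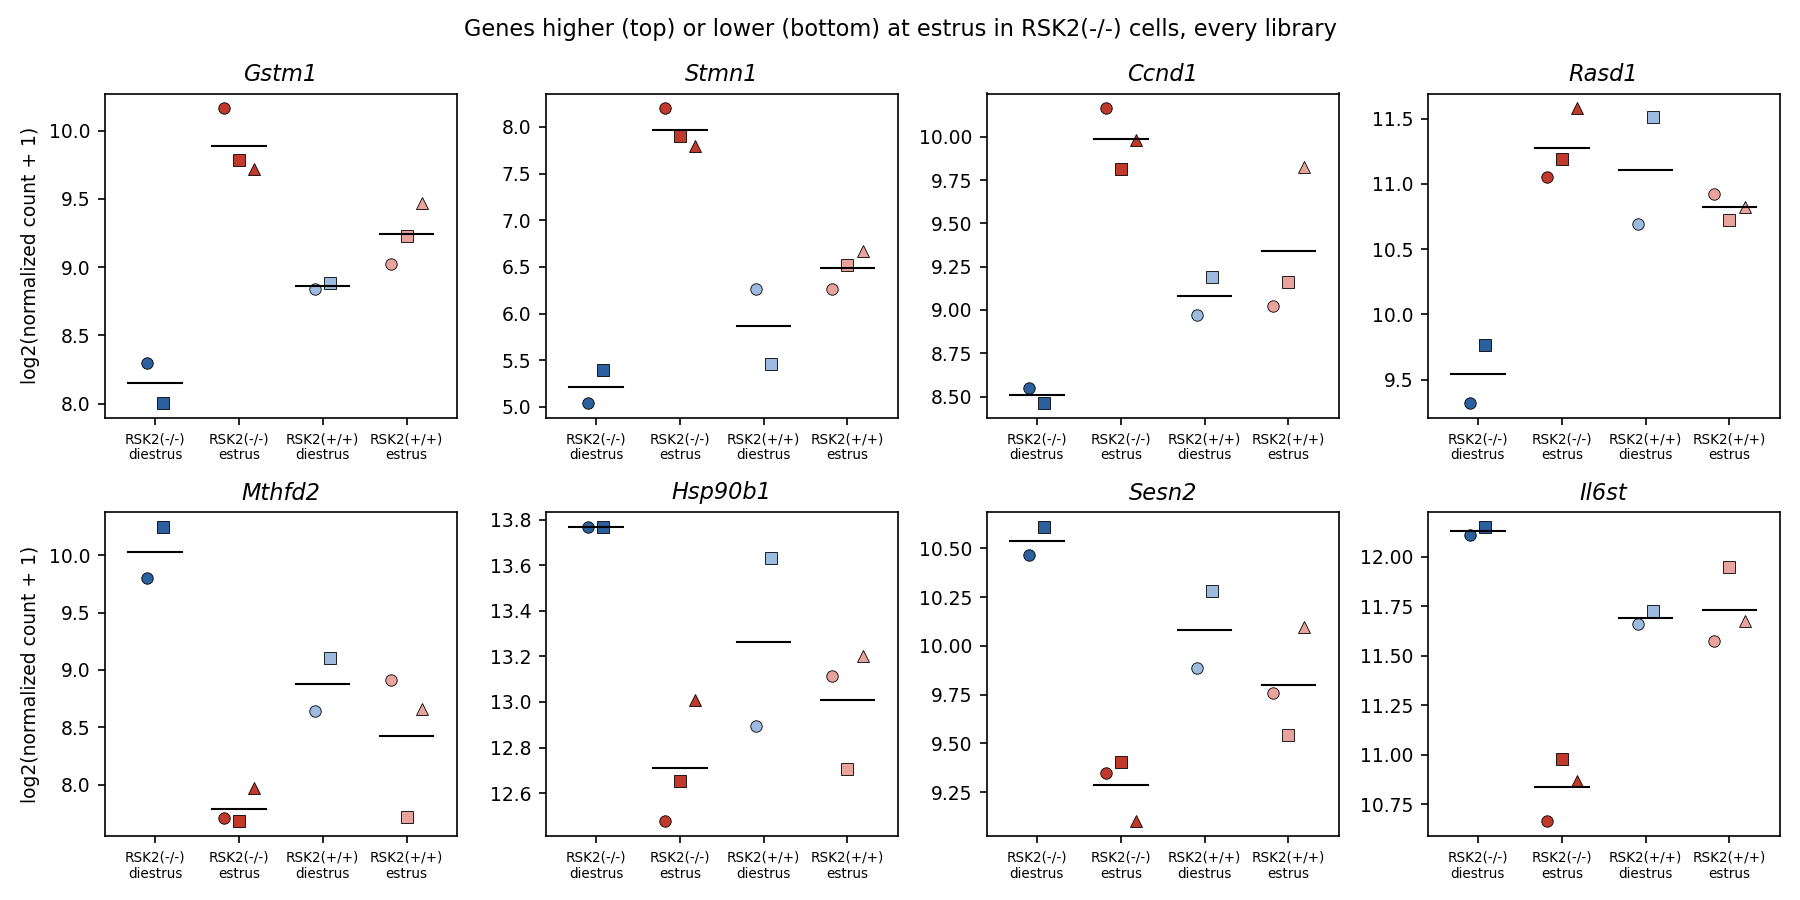
Level of 8 genes in every library, as log2(normalized count + 1). Circles, squares and triangles are replicates 1, 2 and 3 of a group and the horizontal line is the group mean, with knockout groups in dark and RSK2(+/+) groups in light colours. In the top row knockout estrus lies above knockout diestrus, and in the bottom row below it, with no overlap of the knockout stages in any of the 8 genes.

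The rises of greatest size are given first, gene by gene. The Ly6 genes, which encode small membrane-anchored proteins, included Ly6c1 at 1561, 2487 and 1893 in estrus and 177 and 116 in diestrus, a log2 difference of 3.75 ± 0.54 (SE, limma, adjusted p = 0.00453). Ly6i was at 59, 361 and 425 against 15 and 2. Ly6c2, which closely resembles Ly6c1, was at 306, 97 and 54 against 21 and 12. Defb1, a beta-defensin of epithelial surfaces, was at 1256, 1414 and 408 against 82 and 55, but its RSK2(+/+) libraries ran from 302 to 3088 in estrus and were at 675 and 1836 in diestrus. Sprr2a1 and Sprr2a2, near-identical genes of the cornified envelope whose reads cannot be told apart, were at 206, 262 and 19 and at 223, 284 and 21, against 4 and 0 for each. Fam90a1a was at 74, 147 and 41 against 6 and 3. Another 4 genes of this group were near-identical copies of the U3 small nucleolar RNA gene, whose reads cannot be told apart. Estrus replicate 3 was the lowest of the 3 estrus libraries for Defb1, Sprr2a1, Sprr2a2, Fam90a1a and Ly6c2, and the highest for Ly6i. Without diestrus replicate 2 none of the 7 genes with values here was called (adjusted p from 0.0777 to 0.243), and without diestrus replicate 1 only Ly6c1 was. Ly6c2 was not called without estrus replicate 1, nor Ly6i without estrus replicate 2 or 3, with a highest adjusted p of 0.0658.

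Of the falls of greatest size, Cdh13, the gene of T-cadherin, was at 73, 49 and 373 in estrus and 1508 and 2145 in diestrus, with a log2 difference of -4.01 ± 0.77 (SE, limma, adjusted p = 0.00911). Clca3a1 and Clca3a2, related chloride channel regulator genes whose reads may overlap, were at 185, 159 and 216 against 1286 and 645, and at 3221, 3004 and 2538 against 23486 and 9613. In both, knockout diestrus lay above all 5 RSK2(+/+) libraries, the highest of which were at 536 and 6921. Mthfd2, the mitochondrial folate enzyme, was at 208, 204 and 250 against 891 and 1216, and Psat1, a serine synthesis enzyme, at 69, 83 and 146 against 332 and 487. Serpine2, a secreted protease inhibitor, was at 119, 121 and 358 against 711 and 767, and Sema3c, a secreted guidance factor, at 26, 23 and 47 against 117 and 118. Dmbt1, a mucosal scavenger receptor, ranged from 4219 to 31793 in estrus and was at 161537 and 37769 in diestrus. The other falls named by the same rule were Nckap1l, Zfp951, Nrxn3 and Heph, at 21, 13 and 50 against 112 and 157 for Nckap1l. Without estrus replicate 3 all 12 were called. Without estrus replicate 1 the calls of Dmbt1, Serpine2, Nrxn3, Heph and Sema3c were lost and without replicate 2 those of the same genes other than Sema3c. Without diestrus replicate 1 only Mthfd2 was called, and without diestrus replicate 2 only Clca3a1 and Clca3a2.

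Nuclear genes of oxidative phosphorylation, the respiratory complexes and ATP synthase of mitochondria, had the most calls of any list examined. Of 76 tested, 53 rose and none fell, with a median log2 difference of 0.62 in the knockout and 0.08 in RSK2(+/+), and 71 did not overlap between the stages, where 51% of all tested genes did not. The rises were 69.7% of the list, beside 7.67% of all tested genes, and were small, from 0.415 to 1.01 on the log2 scale. Ndufa7, a subunit of complex I, was at 7432, 5137 and 4256 in estrus and 3114 and 2424 in diestrus. Cox4i1 of complex IV was at 11436, 9463 and 9028 against 6799 and 5974, with a log2 difference of 0.64 ± 0.16 (SE, limma, adjusted p = 0.0227). Cox6a1 was at 7142, 4939 and 4697 against 3510 and 2960, and Cox8a at 6529, 4653 and 4647 against 3766 and 3345. Estrus replicate 1 was the highest library in each of these 4 genes, and without it 25 of the 76 rose, with Cox4i1 and Cox8a no longer called. Without diestrus replicate 1 none of the 76 was called and without replicate 2 none, while the median was 0.67 and 0.58. The 13 genes encoded by mitochondrial DNA had a median of 0.54 but none was called. Among them mt-Co1, a core subunit of complex IV, was at 55672, 34237 and 20731 in estrus and 25712 and 30670 in diestrus, so the groups overlapped.

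Genes of ribosomal proteins showed the same direction with fewer calls. Of 77 mitochondrial ribosomal protein genes 27 rose (35.1%) and none fell, with a median of 0.41 on the log2 scale. Mrps34, a small subunit protein, was at 1151, 1042 and 1240 in estrus and 655 and 630 in diestrus, with a log2 difference of 0.83 ± 0.15 (SE, limma, adjusted p = 0.00771). Mrpl33, Mrpl28 and Mrpl24 of the large subunit had log2 differences of 0.79, 0.71 and 0.59. Without estrus replicate 1, 17 of the 77 rose, and without diestrus replicates 1 and 2 in turn 1 and 0. Of the 82 cytosolic ribosomal protein genes 11 rose (13.4%) and none fell, where 7.67% of all tested genes were called higher. Their median was 0.55 in the knockout and -0.09 in RSK2(+/+). Rps4x was at 8590, 5832 and 4747 in estrus and 3579 and 3884 in diestrus, and Rps19 at 12220, 8583 and 7508 against 5657 and 6055. Rpl18 and Rpl14 had the same order of estrus libraries, with replicate 1 highest and replicate 3 lowest. The mean level of the 82 genes, centred on the 10 libraries, was 0.897, 0.338 and 0.0352 in estrus and -0.164 and -0.0819 in diestrus. Their count of calls followed single libraries: 0 without estrus replicate 1, 1 without replicate 2, 74 without replicate 3, and 0 without either diestrus library.

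**Figure D3:**
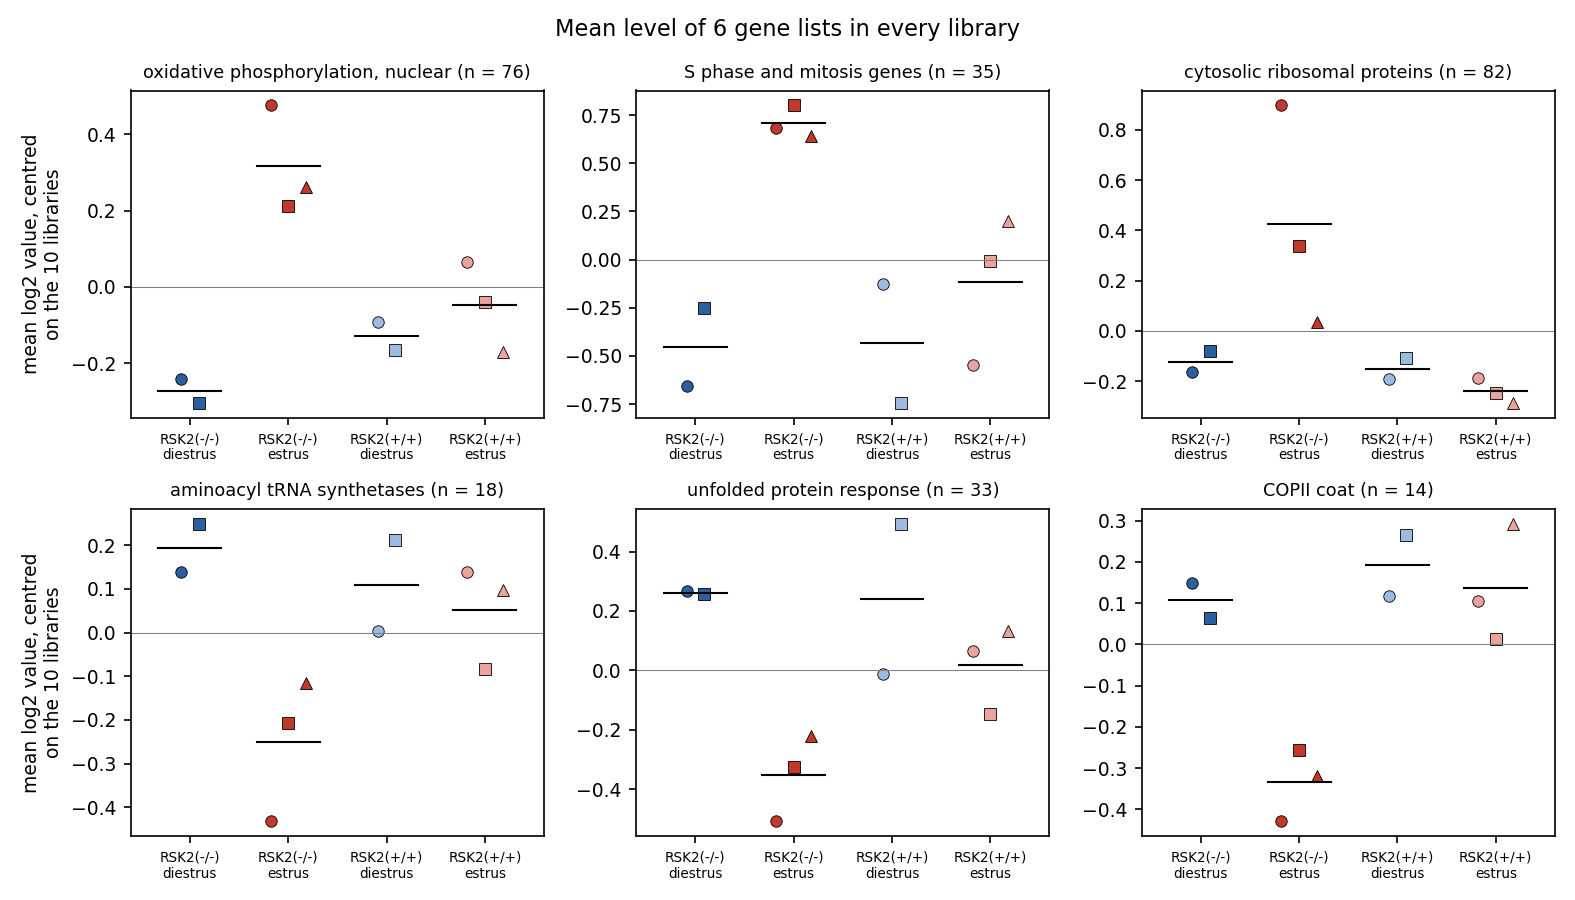
Mean log2(normalized count + 1) of the tested genes of 6 lists in every library, each gene centred on its mean over the 10 libraries. Circles, squares and triangles are replicates 1, 2 and 3 and lines are group means. Knockout estrus and diestrus libraries do not overlap in any of the 6 lists, and replicate 1 of knockout estrus is the most distant library for cytosolic ribosomal proteins, at 0.897.

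Genes of DNA synthesis and mitosis were called in 1 direction. Of 35 tested, 11 rose (31.4%, beside 7.67% of all tested genes) and none fell. The median log2 difference was 0.93 in the knockout and 0.18 in RSK2(+/+). Many of these genes were at low levels, and of the 20 with a mean of at least 50 the median was 0.28 and 4 rose. Mki67, the Ki-67 proliferation antigen, was at 57, 48 and 39 in estrus and 4 and 15 in diestrus, and the RSK2(+/+) libraries were at 7 to 23. Aurkb, a mitotic kinase, was at 27, 30 and 25 against 0 and 2, and Ube2c, which carries ubiquitin for the anaphase promoting complex, at 49, 41 and 60 against 3 and 5. Aurka, the kinase of the spindle poles, was at 282, 390 and 358 against 205 and 169. Rrm2, a subunit of ribonucleotide reductase, was at 105, 195 and 136 against 26 and 90, with a log2 difference of 1.52 ± 0.45 (SE, limma, adjusted p = 0.0408). Tyms, thymidylate synthase, was at 143, 152 and 117 against 63 and 66. Pcna, the replication clamp, was at 1198, 927 and 897 against 892 and 1019 and was not called. Ccnd1, the G1 cyclin D1, was at 1147, 898 and 1010 against 374 and 352, with a log2 difference of 1.48 ± 0.22 (SE, limma, adjusted p = 0.0047). The RSK2(+/+) levels of Ccnd1 were 520, 572 and 908 in estrus and 500 and 583 in diestrus. Ccnd1 and Cdk2, which fell by 0.61 on the log2 scale, were the only calls among 18 genes of G1 cyclins and inhibitors. They made up 11.1% of that list, below the 16.6% of all tested genes. Of the 35 genes, 7 were called without estrus replicate 1, 7 without replicate 2, 3 without diestrus replicate 1 and 2 without diestrus replicate 2. Rrm2 was called in none of the 5 fits that left out a knockout library, Tyms only without estrus replicate 3, and Aurka only without estrus replicate 1 or 3. Ccnd1 was not called without diestrus replicate 2 (adjusted p = 0.0777) and Cdk2 without either diestrus library. Aurkb and Ube2c were called without each estrus library but not without diestrus replicate 1 or 2, and Mki67 only without estrus replicate 2 or 3.

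Genes that charge tRNAs were lower at estrus, together with members of the serine and asparagine pathways. ATF4 is a transcription factor translated when amino acids or protein folding are limiting, and it binds a composite element in the promoters of many of these genes. A search on both strands of RefSeq promoter windows, which run from 250 bases before to 50 after a start (GRCm38.p6, the build mm10), for the letters TGATGNAA found them in 3.97% of 32851 windows and in 2.67% of 10192 tested genes with a window. Of the 9 synthetase genes that fell, 6 had a window and 5 of these held the letters, namely Aars, Gars, Iars, Tars and Yars. Of 6 falling genes of the serine, one-carbon and ATF4 list, 3 did. Members of these lists that did not fall were not counted apart, and the latter list was built to hold ATF4 targets. The counts therefore do not tie the letters to the falls. A match of letters is a description of the sequence and does not show binding. The windows of Gars, at chr6:55037851-55038000 on the plus strand and 30 bases from match to start, and of Tars, at chr15:11399666-11399808 on the minus strand and 15 bases from match to start, are shown 5′ to 3′ up to the annotated exon, with the element, here read on the opposite strand, in capitals.
Gars: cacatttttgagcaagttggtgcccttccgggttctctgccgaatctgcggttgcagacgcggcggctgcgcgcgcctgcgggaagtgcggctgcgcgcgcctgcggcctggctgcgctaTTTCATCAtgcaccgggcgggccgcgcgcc
Tars: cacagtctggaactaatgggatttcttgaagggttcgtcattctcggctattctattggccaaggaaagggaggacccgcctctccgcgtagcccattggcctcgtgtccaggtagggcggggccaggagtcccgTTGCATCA

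Of the 18 aminoacyl tRNA synthetase genes tested, 9 fell (50%, beside 8.95% of all tested genes) and none rose. The median log2 difference was -0.60 in the knockout and -0.09 in RSK2(+/+). Gars, glycyl-tRNA synthetase, was at 1175, 1303 and 1254 in estrus and 2383 and 2935 in diestrus, and at 2002, 1488 and 1710 in RSK2(+/+) estrus and 1933 and 2041 in RSK2(+/+) diestrus. Its log2 difference was -1.09 ± 0.16 (SE, limma, adjusted p = 0.00458). Tars, threonyl-tRNA synthetase, was at 443, 545 and 614 against 867 and 1186. Nars, Eprs and Aars, for asparagine, glutamate with proline, and alanine, fell by 0.73, 0.64 and 0.64 on the log2 scale. In the list of 25 serine, one-carbon and ATF4 genes 6 fell (24%), Psat1, Mthfd2, Asns, Trib3, Sesn2 and Vldlr, and 2 rose, Stc2 and Cebpb. Asns, asparagine synthetase, was at 769, 840 and 983 against 1375 and 1483, and Sesn2, a stress-induced inhibitor of mTORC1, at 651, 677 and 548 against 1414 and 1563. The transcript of Atf4 was not called, at 6591, 5626 and 4411 against 6140 and 6322. Without diestrus replicate 1, 1 of the 18 synthetases fell, and without replicate 2 none. For the ATF4 list the falls numbered 2 and 0 in the same fits. Of the genes named here with a value, Gars and Sesn2 were called without diestrus replicate 1 and none without diestrus replicate 2. Nars and Asns were not called without estrus replicate 1 or 2, while Yars was called only without estrus replicate 3.

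Genes of protein folding in the endoplasmic reticulum and of the COPII coat, which carries cargo from there to the Golgi, were lower at estrus. The endoplasmic reticulum stress element is bound by ATF6 with NF-Y and is built of CCAAT and CCACG with 9 bases between them. Searched on both strands in the same windows, it was found in 0.119% of windows and in 0.196% of tested genes with a window. Members of these lists that did not fall were not counted apart. The ATF4 letters were in 0 of 9 falling folding genes and 0 of 8 falling COPII genes with a window. The stress element was in 0 of the same 8 COPII genes. It was present in 3 of the 9 falling folding genes that had a window, Hsp90b1, Calr and Canx. These are shown 5′ to 3′ up to the annotated exon with the element in capitals, because these genes carry it among those that fell: Calr at chr8:84846935-84847151, 162 bases from match to start, Hsp90b1 at chr10:86705510-86705664, with matches 212 and 107 bases from the start, and Canx at chr11:50325674-50325893, 145 bases from the start, all on the minus strand.
Calr: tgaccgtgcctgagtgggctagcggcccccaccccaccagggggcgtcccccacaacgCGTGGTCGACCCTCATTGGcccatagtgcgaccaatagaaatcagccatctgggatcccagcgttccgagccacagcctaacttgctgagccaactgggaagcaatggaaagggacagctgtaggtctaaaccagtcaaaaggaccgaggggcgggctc
Hsp90b1: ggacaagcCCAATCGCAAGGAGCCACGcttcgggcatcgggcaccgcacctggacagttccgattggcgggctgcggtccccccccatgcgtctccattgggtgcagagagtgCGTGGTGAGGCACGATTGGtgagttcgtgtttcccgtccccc
Canx: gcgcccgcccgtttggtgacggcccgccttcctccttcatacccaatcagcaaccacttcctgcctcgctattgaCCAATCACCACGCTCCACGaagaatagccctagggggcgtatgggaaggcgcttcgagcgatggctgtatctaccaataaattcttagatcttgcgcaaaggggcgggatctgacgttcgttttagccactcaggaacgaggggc

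Of 33 genes of the unfolded protein response 13 fell and none rose, with a median log2 difference of -0.56 in the knockout and -0.21 in RSK2(+/+), and 28 did not overlap between the stages, beside 51% of all tested genes. Hsp90b1, the HSP90 chaperone of the endoplasmic reticulum, was at 5699, 6444 and 8232 in estrus and 13944 and 13953 in diestrus, with a log2 difference of -1.05 ± 0.24 (SE, limma, adjusted p = 0.0161). The lectin chaperones calreticulin and calnexin followed, with Calr at 5174, 6046 and 6474 against 11136 and 9058 and Canx at 3620, 4484 and 3898 against 7237 and 6562. The sensor genes Eif2ak3, which encodes PERK, and Atf6 fell by 1.23 and 0.90 on the log2 scale, while Ern1, the gene of the sensor IRE1, was at 399, 554 and 272 against 323 and 525. Hspa5, the master chaperone BiP, was at 31412, 44591 and 93372 against 107449 and 121568 and was not called (limma, adjusted p = 0.0689), with estrus replicate 3 near the diestrus pair. Without that replicate 19 of the 33 fell. Of 14 COPII genes 8 fell and none rose, with a median of -0.58 in the knockout and -0.05 in RSK2(+/+). The falls were 39.4% of the folding list and 57.1% of the COPII list, beside 8.95% of all tested genes. Sec24d, a cargo adaptor of the coat, was at 931, 1315 and 1100 against 2888 and 2912, and in RSK2(+/+) at 2577 to 2804 in estrus and 2633 and 3668 in diestrus. Sec24c was at 1429, 1685 and 1861 against 2942 and 3317, Sec23b at 1597, 2075 and 2062 against 3218 and 3338, and Sar1a, the GTPase that starts the coat, at 2311, 2740 and 2652 against 3693 and 3550. Sec24d and Sec23b belong to both lists. Without estrus replicate 1 the falls were 8 of 33 and 6 of 14, without diestrus replicate 1 they were 1 and 1, and without diestrus replicate 2 none. Among the genes named with values, Calr was not called without estrus replicate 1 or 2, nor Sar1a without estrus replicate 1. Eif2ak3 and Atf6 were called without each estrus library.

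Cholesterol synthesis and uptake genes, targets of the sterol sensor SREBP2, were called in both directions. Of 22 tested, 5 fell and 2 rose, with a median of -0.32 in the knockout and -0.03 in RSK2(+/+). Calls made up 31.8% of the list, beside 16.6% of all tested genes. Sqle, squalene epoxidase, was at 1000, 1277 and 1773 in estrus and 3192 and 2680 in diestrus (limma, adjusted p = 0.0116). Msmo1 was at 1011, 973 and 1274 against 2471 and 2499 and Sc5d at 1041, 1043 and 1181 against 2331 and 1750. The rises were Pmvk and Ebp, enzymes of the same pathway, at 0.85 and 0.81 on the log2 scale. Without diestrus replicate 1, 1 of the 22 was called, and without replicate 2 none, and Sqle, Msmo1 and Sc5d lost the call in both fits. Msmo1 was not called without estrus replicate 1, and Ebp was called only without estrus replicate 3. Among 16 genes of fatty acid synthesis none was called, with a median of -0.10.

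**Figure D4:**
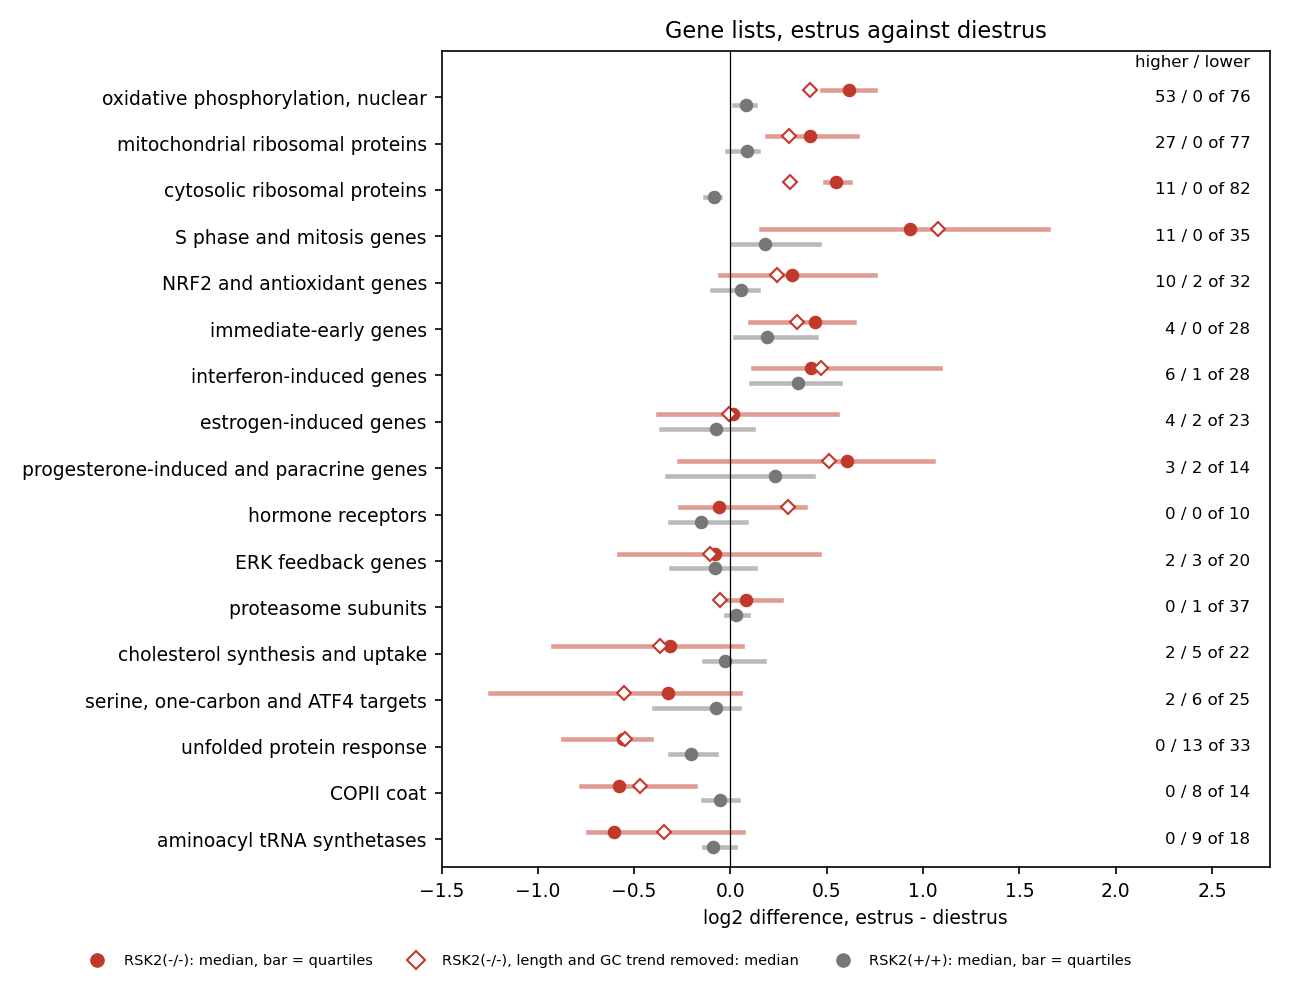
Median log2 difference between estrus and diestrus for 17 gene lists, in RSK2(-/-) cells (red circles) and RSK2(+/+) cells (grey circles), with bars from the lower to the upper quartile of genes. White diamonds give the knockout median after removal of each library's trend with transcript length and GC content, and the right column counts genes called higher and lower of those tested. The knockout medians run from -0.60 for aminoacyl tRNA synthetases to 0.93 for S phase and mitosis genes.

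The receptors of the ovarian hormones and their targets were examined next. None of 10 hormone receptor genes was called, but 2 were called higher with the length and GC trend removed, where the list's median went from -0.06 to 0.30, and 2 without estrus replicate 3. Esr1, the estrogen receptor, was at 1468, 2323 and 1472 in estrus and 1988 and 2161 in diestrus. Pgr, the progesterone receptor, was at 986, 920 and 748 against 994 and 1384, and Prlr, the prolactin receptor, at 37748, 46353 and 40458 against 32385 and 26088, where the stages did not overlap (limma, adjusted p = 0.17 and 0.158). Of 23 estrogen-induced genes 4 rose, Ccnd1, Stc2, Tpd52l1 and Egr3, and 2 fell, Myb and Sgk3 (the latter called only without estrus replicate 3 when 1 library was left out), with a median of 0.01 in the knockout. These 6 calls were 26.1% of the list, beside 16.6% of all tested genes. An estrogen response element, GGTCA and TGACC with 3 bases between them, was also searched for in the promoter windows. It was in 0 of 18 of these genes with a window, and in 1 of 10192 tested genes. Stc2, a secreted stanniocalcin, was at 3778, 4248 and 3415 against 1676 and 2080, and Tpd52l1 at 366, 353 and 328 against 168 and 187. Myb, which encodes a transcription factor, was at 104, 147 and 90 against 208 and 350. Greb1, an estrogen receptor cofactor, was at 21, 18 and 13 against 13 and 36 and was not called. Areg, the gene of the EGF receptor ligand amphiregulin, was at 25165, 22050 and 10637 against 11312 and 11845 (limma, adjusted p = 0.148), where estrus replicate 3 lay below the diestrus pair. None of 9 genes of EGF family ligands and receptors was called.

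Genes induced by progesterone, with other paracrine factors, had 3 rises, Wnt4, Ramp1 and Ccnd1, and 2 falls among 14 tested, or 35.7% called beside 16.6% of all tested genes, with a median log2 difference of 0.605. Wnt4, the secreted factor through which progesterone acts on stem cells, was at 2067, 2461 and 2202 in estrus and 1583 and 1302 in diestrus, 1.56-fold higher (limma, adjusted p = 0.0204). Ramp1, a receptor subunit for calcitonin gene-related peptide, was at 1543, 1377 and 1542 against 281 and 384, a log2 difference of 2.17 ± 0.39 (SE, limma, adjusted p = 0.00777). The peptide hormone gene Calca varied from 42 to 481 in estrus and was at 28 and 107 in diestrus. Wnt7b and Cxcl15 fell by 0.87 and 0.88 on the log2 scale. Tnfsf11, the gene of RANKL, was below the filter, at 0, 0 and 13 in knockout estrus, 2 and 6 in knockout diestrus, 0, 38 and 10 in RSK2(+/+) estrus, and 1 and 4 in RSK2(+/+) diestrus. In the prolactin list of 10, Jak2 and Stat5b, the kinase and transcription factor of the receptor, fell by 0.89 and 0.71, and Socs3, the feedback inhibitor, was at 7782, 13225 and 13392 against 5183 and 6580. Of 18 transcription and other factors of hormone-sensing cells 4 rose, among them Gata3, Spdef and Cebpb, and 1 fell, Myb. Calls were 30% of the prolactin list and 27.8% of these factors, beside 16.6% of all tested genes. Gata3, which keeps the luminal fate, was at 2249, 3289 and 2868 against 1573 and 1737, Spdef at 721, 559 and 546 against 412 and 374, and Cebpb at 2742, 2340 and 3677 against 1682 and 2114. Foxa1, the pioneer factor of the estrogen receptor, was at 3577, 4596 and 3488 against 4129 and 4202. Of the 14 called hormone pathway genes, Ccnd1, Stc2, Tpd52l1, Myb, Wnt4, Wnt7b, Cxcl15, Ramp1, Socs3, Jak2, Stat5b, Gata3, Spdef and Cebpb, Ccnd1 alone was called without diestrus replicate 1 and none without diestrus replicate 2. Without estrus replicate 1 the calls of Myb, Cxcl15, Cebpb, Spdef and Jak2 were lost, without replicate 2 those of Cxcl15, Wnt4 and Socs3, and without replicate 3 those of Cebpb and Socs3.

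ERK pathway genes gave a mixed pattern. Of 20 genes induced by ERK as feedback, 2 rose and 3 fell, with medians of -0.08 in both genotypes. These calls were 25% of the list, beside 16.6% of all tested genes. Dusp4 and Dusp7, phosphatases that inactivate ERK, were at 1030, 1249 and 1265 against 2027 and 2059, and at 1707, 1267 and 1469 against 2495 and 2282. Spred1, an inhibitor of Ras signalling, was at 221, 384 and 290 against 503 and 685. Etv1 and Etv4, ETS transcription factor genes, rose, Etv1 from 63 and 79 in diestrus to 134, 190 and 155 in estrus, which left it below the 196 to 290 of the RSK2(+/+) libraries. Of 9 genes of ERK, RSK and MSK kinases only Mapk3, which encodes ERK1, was called (11.1%). It was at 1356, 1160 and 1161 against 931 and 690. Rps6ka1, the gene of RSK1, was at 1640, 2236 and 1738 against 1907 and 1437 and was not called. Of 28 immediate-early genes, which respond to growth factors within minutes, 4 rose and none fell. The rises were 14.3% of the list, beside 7.67% of all tested genes called higher. The list's median was 0.44 in the knockout and 0.19 in RSK2(+/+). Junb, an AP-1 subunit, was at 19391, 21609 and 25832 against 13760 and 14373, Klf2 at 2965, 2684 and 1793 against 840 and 876, and Egr3 at 14, 28 and 38 against 8 and 6. Btg2, an antiproliferative gene, had log2 differences of 0.59 in the knockout and 0.53 in RSK2(+/+). Of Dusp7, Dusp4, Spred1, Etv1, Mapk3, Junb, Btg2, Klf2 and Egr3 none was called without diestrus replicate 1 or 2. Spred1, Mapk3 and Btg2 were not called without estrus replicate 1, Dusp7, Junb, Btg2 and Egr3 without replicate 2, and Spred1 and Egr3 without replicate 3. Etv4 was called only without estrus replicate 3.

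Antioxidant genes, many of them targets of the transcription factor NRF2, had 10 rises and 2 falls among 32 tested, with a median of 0.32. Calls made up 37.5% of the list, beside 16.6% of all tested genes. Prdx6, a peroxiredoxin, was at 20976, 20781 and 20200 in estrus and 11739 and 11533 in diestrus, with a log2 difference of 0.83 ± 0.18 (SE, limma, adjusted p = 0.0132). Fth1, the ferritin heavy chain, was at 32987, 24847 and 20991 against 15621 and 13777, and Gpx1, a glutathione peroxidase, at 11959, 9357 and 9849 against 6255 and 5673. Gstp1, a glutathione S-transferase with close copies, was at 7113, 5494 and 5268 against 3794 and 2765. The falls were Hmox1, heme oxygenase 1, and Txnrd1, thioredoxin reductase 1, at -0.86 and -0.77 on the log2 scale, so the list did not move in 1 direction. Of 28 interferon-induced genes 6 rose and 1 fell (25% called), with medians of 0.42 in the knockout and 0.35 in RSK2(+/+). Bst2, the antiviral tetherin, was at 1475, 1122 and 711 against 560 and 347, Cxcl10, a chemokine, at 1670, 961 and 862 against 401 and 314, and Irf7 at 394, 322 and 383 against 170 and 219. Irf7 differed by 0.92 in the knockout and 0.91 in RSK2(+/+). Ddx58, the RNA sensor RIG-I, fell by 1.01 on the log2 scale. Of the 8 genes Prdx6, Fth1, Gpx1, Gstp1, Bst2, Cxcl10, Irf7 and Ddx58 none was called without diestrus replicate 1 or without replicate 2. Bst2, Cxcl10 and Irf7 were not called without estrus replicate 1, nor Cxcl10 without replicate 2. With the length and GC trend removed Fth1, Gpx1, Gstp1, Bst2 and Cxcl10 lost the call, and 6 of the 32 antioxidant genes were called higher.

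Of 23 barrier and mucosal defence genes 3 fell, Cdh1, Ocln and Tjp1, and 3 rose, Saa1, Reg3g and Ly6d. The falls were 13% of the list, beside 8.95% of all tested genes. Cdh1, E-cadherin of the adherens junction, was at 9927, 13472 and 13761 in estrus and 25695 and 26764 in diestrus, with the RSK2(+/+) libraries at 18220 to 24737. Ocln and Tjp1, the tight junction proteins occludin and ZO-1, were at 2825, 3437 and 2551 against 6066 and 5297, and at 579, 791 and 617 against 1468 and 1778. Ly6d was at 48206, 38378 and 49573 against 30108 and 27257. Of 17 matrix genes 2 fell, among them Thbs1, thrombospondin 1, by 0.97 on the log2 scale. Among 31 genes of TGF-beta, BMP, Notch and Wnt signalling 3 rose and 3 fell. The falls made up 11.8% of the matrix list, beside 8.95% of all tested genes. Calls in both directions made up 19.4% of the signalling list, beside 16.6% of all tested genes. Tgfbr2, the TGF-beta receptor, was at 1782, 2844 and 2213 against 4320 and 3530, and Smad7, the pathway's inhibitor, fell by 0.56. None of these was called without either diestrus library in turn. Thbs1 was called in no fit that left out a knockout library, Ly6d only without estrus replicate 2, and Smad7 only without estrus replicate 1. With the length and GC trend removed Ocln, Tgfbr2, Smad7, Ly6d and Thbs1 lost the call. Saa1 was not called without estrus replicate 1, nor Reg3g without replicate 1 or 2.

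Calls made up 17.9% of glycolysis and hypoxia genes, 17.5% of translation factors, 17.2% of p53 targets, 9.09% of heat shock genes and 2.7% of proteasome subunits, near or below the 16.6% of all tested genes. Vegfa and Hif1a, the hypoxia genes for vascular growth factor and its regulator, fell by 1.04 and 1.08 on the log2 scale, and the glycolytic enzyme genes Tpi1 and Gpi1 had log2 differences of 0.62 and 0.49, among 5 calls in 28 genes of glycolysis and hypoxia. Of 29 p53 targets 4 fell and 1 rose, and Mdm2, the ubiquitin ligase that limits p53, was at 1311, 1403 and 1108 against 2330 and 2266. Sulf2 fell by 0.79. Of 19 circadian clock genes Cry1 and Nr1d2, both repressors of the clock, fell by 1.03 and 1.08. No other clock gene was called. The share of falls in this list was near the 8.95% of all tested genes called lower, and below the 16.6% called in either direction. Of 63 genes with names of translation factors 6 rose and 5 fell, among them Eif3i with a rise and Eif4g2, Eif1a and Eif4e with falls, and of 37 proteasome genes only Psmc6 was called, at -0.56. Of 22 heat shock genes Hspe1 rose and Hspa4 fell. With the length and GC trend removed Psmc6, Eif4g2, Eif4e, Eif3i, Hspa4 and Hspe1 lost the call, while Eif1a kept it. Psmc6, Eif4e, Eif3i, Hspa4 and Tpi1 were not called without estrus replicate 2, nor Hspe1 without estrus replicate 3. None of the genes named here was called without diestrus replicate 1 or without replicate 2, and Hif1a, Nr1d2, Sulf2, Tpi1, Gpi1, Psmc6, Eif4g2, Eif1a, Eif4e, Eif3i, Hspa4 and Hspe1 were not called without estrus replicate 1.

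Markers of the sort and of other cell types were set beside these results. Ly6a, the Sca-1 gene used for the gate, was at 26930, 21549 and 27186 in estrus and 14585 and 10512 in diestrus, and Itga2, the gene of CD49b, at 174, 96 and 57 against 236 and 339. Itga6, the gene of CD49f, fell by 0.52 on the log2 scale (limma, adjusted p = 0.0493), and Epcam was at 36838, 36971 and 50169 against 52849 and 48066. Prom1, a marker of hormone-sensing cells, was at 2191, 3414 and 9671 against 12984 and 13432, and Cd14, a progenitor marker, at 1487, 1128 and 1223 against 793 and 851. None of Ly6a, Itga2, Itga6, Prom1 and Cd14 was called without diestrus replicate 1 or 2, nor with the length and GC trend removed (limma, adjusted p from 0.0665 to 0.216). Itga2 alone of these was called without estrus replicate 1, Itga6 and Prom1 were not called without replicate 2, and Itga6, Ly6a and Cd14 were not called without replicate 3. Of 9 tested markers of macrophages and dendritic cells 3 rose, Cd74, H2-Ab1 and C1qb, and none fell, with a median of 1.68. These rises were 33.3% of the list, beside 7.67% of all tested genes. Cd74, the invariant chain of antigen presentation, was at 409, 436 and 215 against 60 and 71, but at 211, 222 and 32 in RSK2(+/+) estrus and 255 and 157 in RSK2(+/+) diestrus. The summed level of the 14 listed genes was 1242, 1215 and 799 in knockout estrus and 542 and 535 in knockout diestrus, and from 375 to 900 in RSK2(+/+). The defining genes Adgre1, Mrc1, Itgax and Ptprc were at 6 or fewer in every library. Cd74 and H2-Ab1 were not called without estrus replicate 1 or 2. C1qb, at 44, 30 and 8 against 1 and 0, was called without each estrus library, and none of the 3 without diestrus replicate 1 or 2. No basal, fibroblast, endothelial, adipocyte, lymphocyte or erythroid marker was called, but few of most types were tested. Those tested were 8 of 11 basal, 2 of 9 fibroblast, 3 of 8 endothelial, 2 of 8 adipocyte, 1 of 13 lymphocyte and 3 of 7 erythroid markers. The lack of calls therefore says little about these cells. Of the 2 fibroblast genes Dcn differed by 2.86 on the log2 scale (limma, adjusted p = 0.0716) and Col3a1 by -0.27. The summed fibroblast markers were at 768, 3106 and 109 in knockout estrus and 105 and 122 in diestrus, the summed basal markers at 663 to 1373 against 535 and 981. In bulk samples fewer cells of a type and less RNA per cell cannot be told apart, and the part of these markers in the other results was not tested.

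The differences also moved with transcript length. In the knockout the median log2 difference ran from 0.31 in the 3030 genes with the shortest transcripts to -0.31 in the 3029 with the longest, when genes were cut into 5 classes by length, against 0.03 and -0.09 in RSK2(+/+). Of the shortest class, which runs from 39 to 1368 bases, 15% were called higher and 2.24% lower. Of the longest, from 4795 bases, 2.41% were called higher and 18.2% lower. Over the 15146 tested genes with a length, the difference correlated with log2 length at r = -0.258 (Spearman's rho -0.35) in the knockout and at -0.0817 (rho -0.149) in RSK2(+/+), across genes that share the same 5 libraries and are not independent. Each estrus library of the knockout had a negative slope with length, of -0.116, -0.0316 and -0.0765 on the log2 scale per doubling, and both knockout diestrus libraries a positive one, of 0.0577 and 0.0558. In RSK2(+/+) the slopes were -0.025, 0.0348 and 0.0285 in estrus and 0.0331 and 0.0391 in diestrus. The labels give an RNA integrity number of 8 for every sample. Median transcript length was 1088 bases for the oxidative phosphorylation list, 1076 for cytosolic ribosomal proteins, 3172 for the unfolded protein response and 4024 for COPII. After removal of each library's smooth trend with length and GC content, 1496 genes were called, of which 1215 were among the 2524. The oxidative phosphorylation rises then numbered 24 of 76 with a median of 0.42, the mitochondrial ribosomal rises 22 of 77, the cytosolic ribosomal rises 1 of 82, and the mitosis rises 11 of 35. The falls numbered 7 of 18 synthetases, 11 of 33 folding genes and 8 of 14 COPII genes. Of 120 called genes followed singly across settings 55 lost the call, among them Cox4i1, Cox6a1, Cox8a, Mrpl28, Mrpl24, Rrm2, Aurka, Eprs, Aars, Canx and Sc5d. Cxcl15, Cebpb, Spdef, Socs3, Jak2, Stat5b, Spred1, Mapk3, Junb and Btg2 lost it too. So did Dmbt1, Nrxn3, Heph, Sulf2, Nr1d2, Hif1a, Tpi1, Cd74 and H2-Ab1. The cause of the length trend was not tested.

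**Figure D5:**
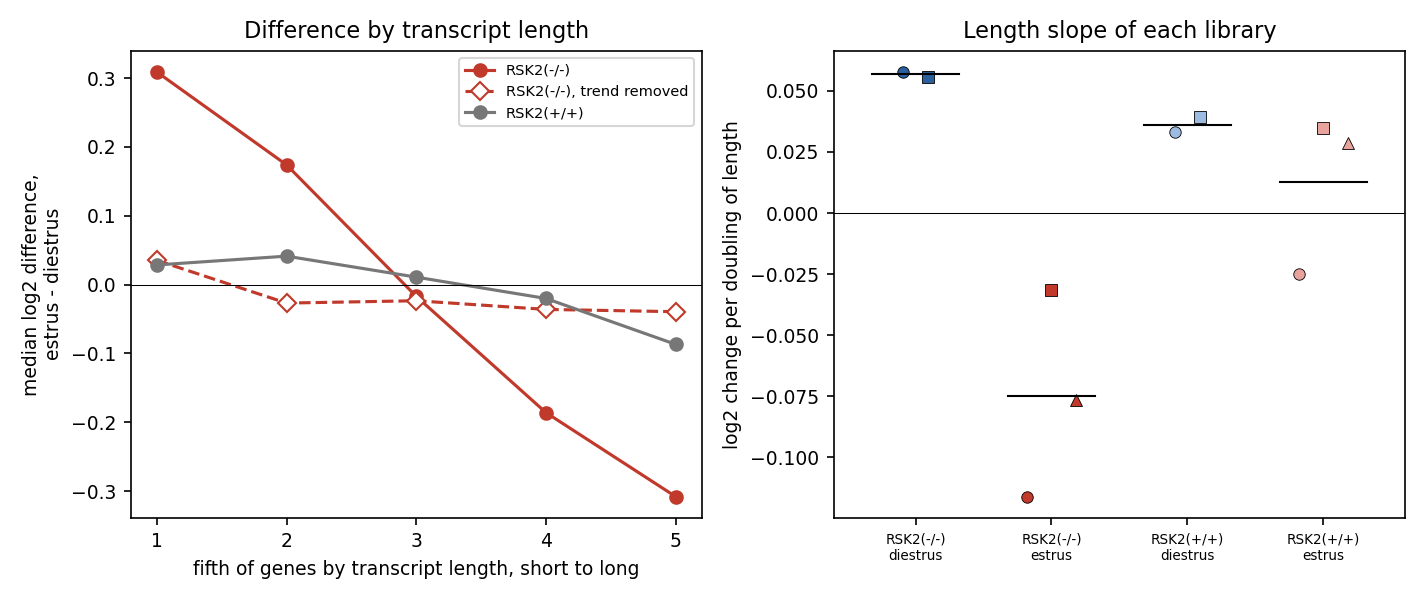
Left, median log2 difference between estrus and diestrus by class of transcript length (5 classes of near-equal number), from short to long, for RSK2(-/-) with and without removal of the length and GC trend and for RSK2(+/+). Right, slope of each library's centred log2 values with length, where circles, squares and triangles are replicates 1, 2 and 3 and lines are group means. The knockout line runs from 0.31 to -0.31, and the 3 knockout estrus slopes are negative while both knockout diestrus slopes are positive.

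No gene was called in the interaction. Among genes with a mean of at least 50 and a symbol that is not a predicted name, the 3 smallest interaction p in each direction were those of Dynlt1b, Rasd1 and Stmn1 with a more positive estrus difference in the knockout and Il6st, Cyld and Lrmda with a more negative one. Rasd1 differed by 1.73 between the stages in the knockout and by -0.28 in RSK2(+/+), an interaction of 2.01 ± 0.34 on the log2 scale (SE, limma, adjusted p = 0.156). Stmn1 differed by 2.75 and 0.62, and Il6st by -1.29 and 0.04. Dynlt1b, a dynein light chain gene with near-identical copies, was at 5305, 4551 and 4434 in knockout estrus and 3038 and 2767 in knockout diestrus, and at 2135, 2153 and 2051 in RSK2(+/+) estrus and 3242 and 3214 in RSK2(+/+) diestrus, so the stages did not overlap and ran in opposite directions. Its interaction was 1.32 ± 0.19 (SE, limma, adjusted p = 0.0936). Lrmda was at 30, 59 and 84 against 54 and 57 in the knockout and 67, 83 and 96 against 10 and 4 in RSK2(+/+). In the knockout contrast Rasd1, Stmn1, Il6st and Cyld were called in every fit that left out a knockout library, and Dynlt1b was not called without either diestrus library.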

How the data were processed

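RNA of sorted mammary cells was sequenced in 10 libraries, 3 estrus and 2 diestrus for each genotype. The authors deposited 1 value per gene and library, a read count normalized between libraries and rounded to a whole number, which is treated here as a score and not as a raw count, so no count model was fitted. STAR, HTSeq, DESeq2 and the mm10 build are named, per the submitters' processing notes, and their versions, settings and annotation release are not given in the sources used here. Sequencing depth is therefore unknown, and p-values measure only the spread between libraries.

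Genes with a mean of at least 10 were analysed as log2(value + 1), with limma 3.58.1 in R 4.3.3 (lmFit, eBayes with a mean-variance trend, 1 mean per group over the 10 libraries). P-values were adjusted by Benjamini and Hochberg over the 15180 genes, with a threshold of 0.05. The test was tried on simulated data with known differences. Gene models came from GENCODE M21 and promoter windows from RefSeq. The members and gene lists were chosen with earlier results of these data known. Genes named are the 12 greatest rises and 12 greatest falls with a mean of at least 50 and no overlap of the stages, up to 4 called genes of highest mean per list, a short set of receptors, gate markers and hormone targets, and the 3 smallest interaction p in each direction. Further list members, and the 24 genes called in every leave-one-out fit, were named after their values were seen. The alternatives were other pseudocounts, filters, scalings and variance settings, a replicate block, removal of the length and GC trend with mgcv 1.9.3, the knockout libraries alone, and each library left out. Some genes that these rules name are not reported here.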

Additional observations from a re-analysis of the deposited data

How the results depend on the processing

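The count of 2524 genes called between the stages in the knockout stayed within 1.5 times under pseudocounts of 0.5 and 5, a minimum mean of 50, equal totals, quantile and trimmed-mean scaling, and the knockout libraries alone. It was 1626 without a filter, 1685 without the mean-variance trend, 1496 with the length and GC trend removed, 3884 with library weights, and 39 to 2894 when 1 of the 10 libraries was left out. Quantile scaling turned the balance of directions, with 1325 called higher and 1185 lower, beside 1165 and 1359 with the deposited scaling. With the replicate number as a block 2608 genes were called, 2146 of them among the 2524, and 1261 with the block and the length and GC trend removed. The deviations of equally numbered knockout libraries from their group means correlated at 0.0464 and -0.0274. Deviations of the diestrus pair mirror each other by construction, so this check cannot settle whether the replicate numbers pair the libraries. In RSK2(+/+), where no gene was called, library weights gave 1, the replicate block 1, and leaving out a library 0 to 6. For the interaction, also 0, quantile scaling gave 3, library weights 6, and leaving out a library 0 to 3. None of the 120 called genes followed singly changed sign in any setting. Where the stages did not overlap, leaving out 1 library could not have changed it. Other genes named in the text as called were not followed across all settings. The medians of 10 of 32 gene lists did change sign with the length and GC trend removed, among them hormone receptors (-0.06 to 0.30) and barrier genes (0.20 to -0.02). The cause of these shifts was not tested. Of 120 genes called in the knockout and followed singly, 55 lost the call with the length and GC trend removed, 42 without a filter, 111 without diestrus replicate 1 and 117 without diestrus replicate 2.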

Other observations

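Classes of genes other than protein-coding ones also differed in their share of calls between the stages in the knockout. Of 12320 protein-coding genes tested 8.25% were called higher at estrus and 10% lower. Of 695 processed pseudogenes, copies made from messenger RNA, 33 were called higher (4.75%) and 20 lower (2.88%). Their median log2 difference was 0.23 in the knockout and -0.01 in RSK2(+/+). Of 51 small nucleolar RNA genes, many of which guide the modification of ribosomal RNA, 8 were called higher (15.7%) and none lower. Their median was 0.18 in the knockout and 0.52 in RSK2(+/+). The U3 copies called higher, Rnu3b1, Rnu3b2, Rnu3b3 and Rnu3b4, are near-identical small nucleolar RNA genes. Their reads cannot be told apart, so their calls are not separate results. Of 170 microRNA genes 12 were called higher (7.06%) and 4 lower (2.35%). Over all tested genes 7.67% were called higher and 8.95% lower. These differences between classes were not tested.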
